A study of Mus musculus with 18 samples.

Results

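RNA-seq values were described for wt E8 cells at D7 and at D15 of differentiation. E8 is a female mouse ES cell line from an F1 cross of C57BL/6J with *Mus castaneus*. ES cells were grown with LIF on inactivated MEFs, and differentiation was undirected, by removal of LIF and culture as embryoid bodies (EBs), which according to the methods were plated on gelatin after D7. The members were taken by their labels alone: 2 wt libraries at D7 and 2 at D15, which are 4 of the 18 libraries of the series. The other E8 libraries were 4 *Kdm6a* KO libraries on the same days, which according to the methods come from 1 clone with a homozygous deletion of the *Kdm6a* promoter. They shared the estimate of spread with the wt libraries and otherwise serve only for comparison. The 10 libraries of the *Tsix*-stop line (female F1 cells of another cross with *cast*, with a transcriptional stop in *Tsix*, at D0 and D15) include wt cells, which are set beside E8 where named. The methods describe the E8 libraries as 1 wt control and 1 KO clone at D0, D2 and D4, whereas the labels give D7 and D15 with 2 libraries each. The labels were followed here, so the days, and the 2 libraries as replicates, rest on the labels alone. The labels do not say whether the 2 libraries of a day come from separate cultures, so the p-values measure only the spread between these libraries, which may be technical.

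As background, naive pluripotency in mouse ES cells is held by a network of transcription factors around *Pou5f1*, *Sox2*, *Nanog*, *Esrrb* and the Klf genes, which is normally taken down after LIF is withdrawn. EBs then pass through a formative state marked by *Fgf5*, *Otx2* and *Dnmt3b*, and switch on primitive streak genes such as *T*, *Eomes* and *Mesp1* before germ layer derivatives appear. In female cells the same steps accompany X inactivation, which starts when *Xist* RNA rises on the future Xi and its antisense partner *Tsix* goes down.

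Values are TPM (transcript abundance scaled to the same total in each library), and a change is a difference of log2(TPM + 1) between D15 and D7, fitted with limma. A gene is said here to rise or fall when its FDR was at most 0.1 and its change at least 2-fold. The added 1 makes changes of low genes smaller than those of TPM itself. Each wt library had between 11408 and 11507 symbols at 2.5 TPM or more, and the 2 libraries of a day correlated across genes at r = 0.972 (D7) and 0.973 (D15), against 0.961 to 0.963 between days. Small RNA symbols took 26.5% to 29.9% of the TPM in the wt libraries. *Kdm6a*, the targeted gene, was at 46.7 and 47.2 TPM in the wt libraries at D7, at 47.8 and 47.5 at D15, and below 0.1 in the 4 KO libraries.

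Most of the wt transcriptome differed little between D7 and D15. Of 12452 genes tested, 73 rose and 102 fell, which is 1.41% of the genes tested in either direction (0.586% higher, 0.819% lower). The D7 and D15 libraries did not overlap for any of the 175, but genes called at these thresholds can hardly overlap, so this adds no support. Smaller shifts were common: without a minimum fold, 3760 genes (30.2%) were higher and 3541 (28.4%) lower at D15 at the same FDR, together 58.6%. The median gene changed by 0.01 on the log2 scale, with the 10th percentile at -0.31 and the 90th at 0.35. Leaving out the small RNA symbols, 1 called gene was at least 4-fold higher at D15 and 9 were at least 4-fold lower. In bulk samples such as these, fewer cells of a type and less RNA per cell cannot be told apart.

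**Figure D1:**
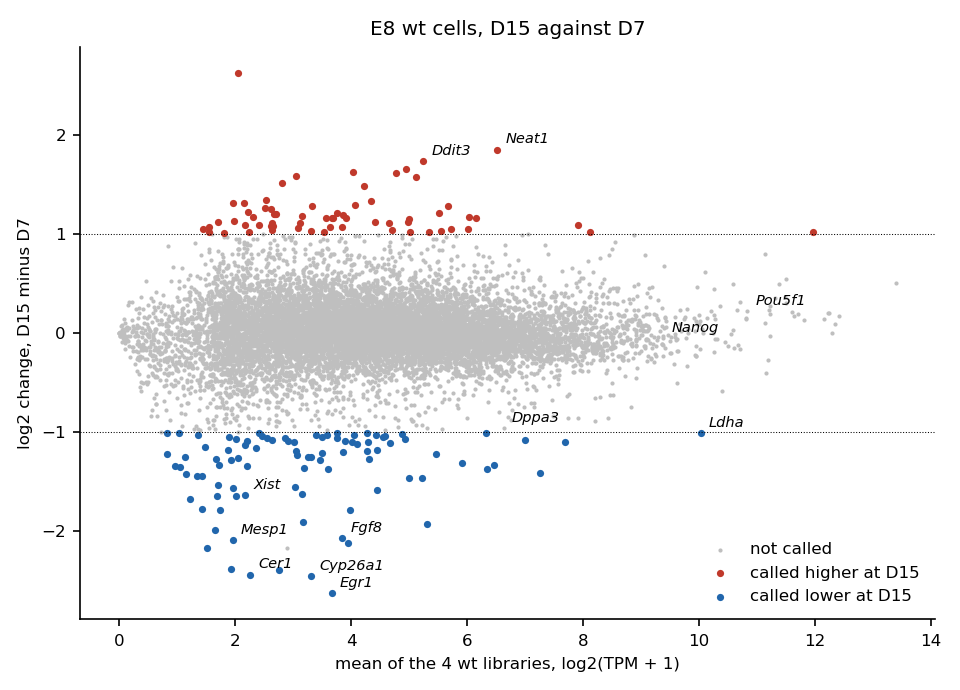
Change of each tested gene between D7 and D15 in E8 wt cells (y axis, log2(TPM + 1), D15 minus D7) against its mean level (x axis, log2(TPM + 1)), without small RNA symbols; dotted lines mark a 2-fold change. Most genes lie close to 0, *Nanog* and *Pou5f1* among them, and *Egr1*, *Cyp26a1* and *Cer1* are among the lowest.

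The pluripotency genes were still high at D15. All 20 naive pluripotency genes were tested and none rose or fell, with a median change of 0.23 against 0.01 over all genes. Of the 20, 12 were higher and 4 lower at D15 at an FDR of at most 0.1, where 30.2% of all genes were higher and 28.4% lower, all 16 by less than 2-fold, and 4 had a larger FDR. *Nanog* was at 675 and 680 TPM at D7 and at 638 and 667 at D15, a change of -0.06 ± 0.04 (SE, FDR = 0.273 by limma), so that both D15 libraries were slightly below both D7 libraries. *Esrrb*, a nuclear receptor of the naive network, went from 409 and 394 to 476 and 514 TPM (0.30 ± 0.04, FDR = 0.0013). *Tbx3*, a T-box factor that acts against differentiation, had the largest upward shift of the list, from 50.5 and 47.9 to 85.7 and 95.8 TPM (0.87 ± 0.06, FDR = 4.3e-05). *Dppa5a*, an RNA-binding protein of ES cells and the most abundant member, was at 8853 and 9087 TPM at D7 and at 12451 and 12921 at D15 (0.50 ± 0.06, FDR = 0.00046). With it the summed TPM of the list went from 12730 and 12855 to 16495 and 17207.

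The downward shifts within the naive list were those of *Dppa3*, *Fbxo15*, *Nr5a2* and *Zfp42*. *Dppa3* (Stella), which protects DNA methylation in the early embryo, came closest to the 2-fold limit, from 130 TPM in both D7 libraries to 66.9 and 65.8 at D15 (-0.96 ± 0.03, FDR = 6.0e-06). *Zfp42* (Rex1), a zinc finger gene used as a reporter of the naive state, was at 432 and 421 TPM at D7 and 390 and 405 at D15 (-0.10 ± 0.04, FDR = 0.045). *Klf2*, *Klf4*, *Tfcp2l1*, *Prdm14*, *Nr0b1*, *Fgf4*, *Tcl1*, *Tdh* and *Mybl2* shifted upward by 0.15 to 0.47, while *Klf5*, *Gdf3* and *Gbx2* had an FDR above 0.1, as did *Nanog*.

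Core pluripotency genes, which are shared by the naive and the primed state, showed shifts of similar size with the opposite median. None of the 12 genes, all tested, rose or fell, and the median change was -0.20. At an FDR of at most 0.1, 3 were higher and 8 lower, where 30.2% of all genes were higher and 28.4% lower. *Pou5f1* (Oct4) was at 1729 and 1625 TPM at D7 and at 1865 and 2044 at D15 (0.22 ± 0.05, FDR = 0.013), with both D15 libraries above both D7 libraries. *Sox2*, its DNA-binding partner, was at 477 and 485 TPM and then at 427 and 449 (-0.13 ± 0.04, FDR = 0.032). *Lin28a*, the RNA-binding inhibitor of let-7 processing, had the largest shift, from 175 TPM in both libraries to 103 and 111 (-0.71 ± 0.05, FDR = 7.1e-05). Summed over the 12 genes the level was 4173 and 4032 TPM at D7 and 3876 and 4187 at D15, so the libraries of the 2 days overlapped.

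Genes of the formative and primed states were mostly lower at D15. Of 13 genes, all tested, 4 fell, where 0.819% of all genes fell, none rose, and the median change was -0.47. With a pseudocount of 5 none of the 13 fell, and the median was -0.39. *Fgf5*, a growth factor that marks the post-implantation epiblast, was at 14.8 TPM in both D7 libraries and at 5.35 and 6.36 at D15 (-1.21 ± 0.07, FDR = 2.7e-05). *Dnmt3b*, the de novo DNA methyltransferase that comes up on leaving the naive state, went from 107 and 104 TPM to 50.1 and 53.9 (-1.01 ± 0.04, FDR = 8.3e-06), just past the 2-fold limit: without replicate 1 of D7 or of D15 the change was -0.99 or -0.96. *Cdh2* (N-cadherin) fell from 4.96 and 4.74 to 1.55 and 1.33 TPM, and *Lef1*, a nuclear effector of Wnt signalling, fell from 12.5 and 12.3 to 4.68 and 4.59. *Otx2*, a homeobox factor that drives the exit from the naive state, shifted by less than 2-fold, from 112 and 117 to 75.3 and 78.3 TPM. Of the 11 genes of the DNA methylation list, *Dnmt3b* was the only one to fall; *Dnmt3l*, its catalytically inactive cofactor, went from 391 and 374 to 197 and 217 TPM (-0.88 ± 0.05).

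To place these levels, wt *Tsix*-stop libraries of ES cells before differentiation (D0) and at D15 were put on the same kind of scale, TPM without small RNA symbols. Their TPM was computed from counts, the lines were normalized separately and differ in genetic background, and no test was made. *Nanog* on this scale was at 950 and 970 in E8 wt at D7 and 894 and 908 at D15, beside 1207 and 1304 in *Tsix*-stop ES cells and 425 and 394 in *Tsix*-stop D15 cells. *Pou5f1* was at 2611 and 2783 in E8 wt at D15, beside 2310 and 2356 in *Tsix*-stop at D0 and 1127 and 1371 at D15. Both genes were thus nearer to the undifferentiated than to the differentiated *Tsix*-stop cells. This did not hold across the 2 lists: many naive genes and most core genes were at D15 nearer to the differentiated cells. *Zfp42* was at 546 and 551 in E8 wt at D15, beside 1273 and 1062 in *Tsix*-stop at D0 and 325 and 336 at D15. *Tfcp2l1* was at 126 and 128, beside 363 and 550 at D0 and 153 and 133 at D15. These 2 genes were among those nearer to the differentiated cells.

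Over the 20 naive genes, the median level relative to *Tsix*-stop ES cells was 76.4% in E8 wt at D7 and 73.6% at D15, and 38.3% in *Tsix*-stop cells at D15. Single genes scattered widely around this, from 27.9% (*Tfcp2l1*) to 270% (*Dppa5a*) at D15, and the same ratio over 7914 genes at 10 TPM or more had a 10th percentile of 49.8% and a 90th of 215%. Across 13271 genes, Spearman's rho with *Tsix*-stop D0 libraries was 0.885 to 0.886 for E8 wt D7 and 0.879 to 0.880 for D15. With *Tsix*-stop D15 libraries it was 0.836 to 0.840 and 0.827 to 0.832, so both E8 days were more like the undifferentiated cells. These correlations are across genes, which are not independent.

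**Figure D2:**
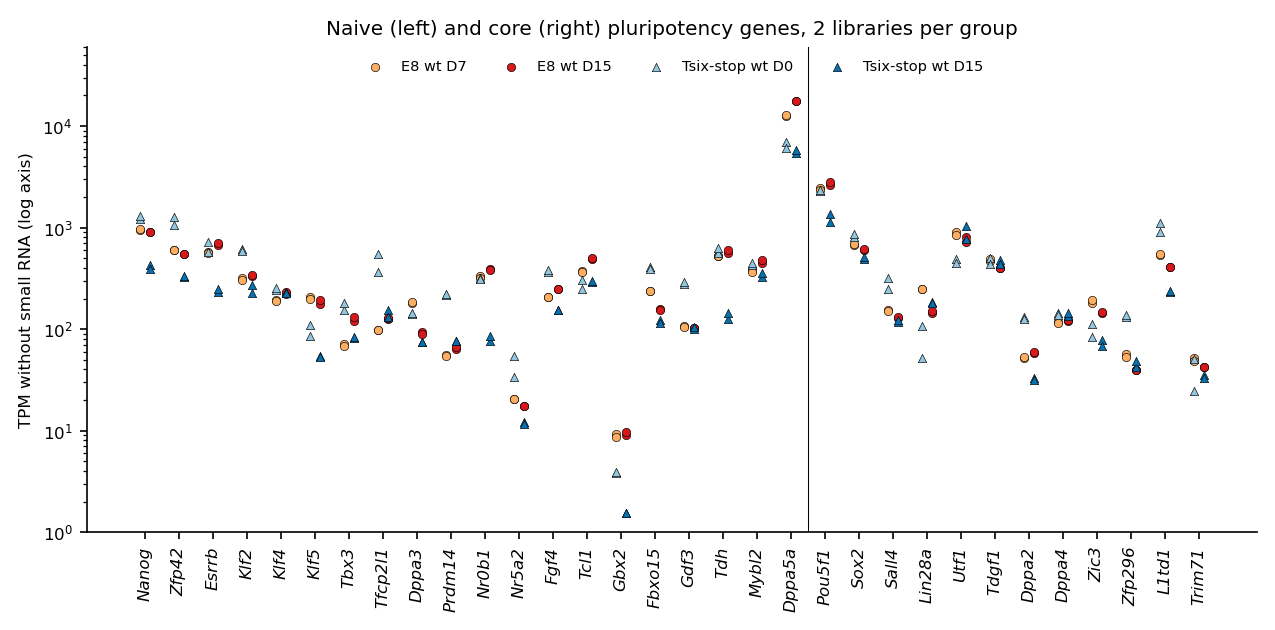
TPM without small RNA symbols (log axis) of 20 naive and 12 core pluripotency genes in each library of E8 wt (circles, D7 and D15) and *Tsix*-stop wt cells (triangles, D0 and D15). *Nanog* is at 894 and 908 in E8 D15 libraries and at 425 and 394 in *Tsix*-stop D15 libraries.

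Genes that went up with differentiation in the other line were, by their median, between its D0 and D15 levels in E8 wt cells. In *Tsix*-stop wt cells 1455 genes were at least 4-fold higher at D15 than at D0 without overlap of the libraries, a set defined after the data were seen. Their median level was 1.24 TPM at D0 and 20.6 at D15 in *Tsix*-stop cells, and 5.23 at D7 and 4.43 at D15 in E8 wt cells, where 263 of them were below 1 TPM on both days. Of the 1206 tested in E8, 9 rose (0.746%, against 0.586% of all genes) and 57 fell (4.73%, against 0.819%). The 218 genes at least 4-fold lower at D15 than at D0 in *Tsix*-stop cells, defined in the same way, gave another picture. Their median was 29.6 TPM at D0 and 3.81 at D15 in *Tsix*-stop cells. In E8 wt it was 6.27 at D7 and 5.20 at D15, nearer to the differentiated level. Of the 140 tested in E8, 2 rose (1.43%) and 1 fell (0.714%).

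Several, but not all, marker lists of germ layer derivatives had lower summed levels in E8 wt cells than in the other line at D15. The 24 visceral endoderm and yolk sac genes, 20 of which were tested, summed to 124 and 117 TPM without small RNA symbols in E8 wt at D7 and 115 and 110 at D15, beside 1417 and 1473 in *Tsix*-stop cells at D15. *Afp*, the fetal serum protein of the yolk sac, was at 1.51 and 1.34 TPM in E8 wt at D15 and at 254 and 293 in *Tsix*-stop D15 cells. The 25 fibroblast and stroma genes, which would also mark MEFs carried over from the feeder layer, summed to 177 and 173 TPM at D7 and 197 and 201 at D15 in E8 wt, beside 4613 and 4149 in *Tsix*-stop D15 cells. In deposited TPM, the collagen gene *Col1a1* was between 0.225 and 0.622 in all 4 wt libraries and *Fap* was at 0 in each. Smooth muscle genes (8 listed) summed to 67.1 and 69.6 TPM in E8 wt at D15 beside 3210 and 3095, and the epithelium and keratin list (18 genes) to 738 and 753 beside 4840 and 4833. The order was the opposite for the neuron list (20 genes), at 445 and 446 in E8 wt at D15 beside 246 and 251. It was also the opposite for the endothelium list (16 genes), at 259 and 279 beside 232 and 239. In *Tsix*-stop ES cells at D0 the neuron list was at 529 and 579 and the endothelium list at 194 and 181. In deposited TPM, *Stmn2* alone made 187 and 188 of the neuron sums of 318 and 328 in E8 wt at D15. *Pecam1* made 92.9 and 105 of the endothelium sums of 185 and 205 in the same libraries.

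Primitive streak and early mesoderm genes had the lowest median change of the 39 lists. Of 20 listed genes 16 were tested, 9 fell and none rose, where 0.819% of all genes fell, and the median change was -1.07. With a pseudocount of 5 in place of 1, which weighs these low levels less, 1 of the 16 fell. Lineage regulators made up most of the 9. *Mesp1*, the bHLH factor of the first cardiac and cranial mesoderm, was at 5.53 and 5.03 TPM at D7 and at 0.452 and 0.501 at D15 (-2.09 ± 0.10, FDR = 1.3e-05). *Lhx1*, a LIM homeobox gene of the anterior streak, went from 5.81 and 4.97 to 0.243 and 0.214 TPM (-2.38 ± 0.09, FDR = 8.0e-06). *T* (Brachyury), the T-box factor of nascent mesoderm, fell from 6.299 and 6.39998 to 2.227 and 2.997 TPM, and its relative *Eomes* from 22.6 and 22.4 to 9.65 and 10.0. In every one of these genes both D15 libraries were below both D7 libraries, which adds nothing to the calls.

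*Mixl1*, a homeobox gene of mesendoderm, fell from 4.26 and 4.03 to 0.620 and 0.383 TPM, and *Evx1*, a posterior streak homeobox gene, from 2.98 and 2.85 to 0.357 and 0.530. Signals of the streak fell as well: *Fgf8*, a ligand needed for cells to leave the streak, went from 22.2 and 21.999 to 3.62 and 5.58 TPM (-2.07 ± 0.14, FDR = 4.7e-05), and *Wnt3*, the ligand that starts streak formation, from 2.12 and 2.08 to 0.309 and 0.299 TPM. *Sp5*, a direct Wnt target, fell from 1.89 and 2.01 to 0.119 and 0.192 TPM.

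Nodal pathway genes of the same list did not follow. *Nodal* was at 58.7 and 57.5 TPM at D7 and at 64.9 and 70.1 at D15 (0.21 ± 0.05, FDR = 0.0094). Its antagonist *Lefty2*, itself a Nodal target, was at 346 and 343 TPM and then at 424 and 421 (0.29 ± 0.03, FDR = 0.00016). *Lefty1* was at 297 and 276 TPM at D7 and at 314 and 311 at D15 (0.13 ± 0.06, FDR = 0.109). These abundant genes dominate the summed level of the list, which was 786 and 758 TPM at D7 and 829 and 833 at D15.

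In the KO cells several of these genes moved the other way between the same days, by the interaction term of the same fit. *Mesp1* was at 1.24 and 0.928 TPM in KO at D7 and at 7.24 and 8.41 at D15, and its KO change exceeded its wt change by 4.17 ± 0.14 (FDR = 1.8e-06). *Fgf8* went from 27.6 and 28.7 to 112 and 109 TPM in KO, a difference of 3.9998 from the wt change (FDR = 6.1e-06). *Lefty1* was at 18.0 and 18.5 TPM in KO at D7 and 76.7 and 68.4 at D15, below wt on both days. For 13 of the 16 genes tested the KO change was at least 2-fold above the wt change, as for 3.89% of all genes. For none was it 2-fold below, as for 3.36% (7.25% in either direction). The filter on low values counted the KO libraries too, for all genes. *Cdx2*, *Msgn1* and *Wnt3*, which are among the 13, passed it only with their KO libraries, as did *Mesp2* and *Sp5*, which are not. *Cdx2* was at most 0.232 TPM in wt and at 35.9 and 34.1 in KO at D15. High KO levels thus helped decide which genes were tested, so the count of 13 is not independent of them. The KO libraries come from 1 clone according to the methods, so the knockout and the clone cannot be told apart.

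**Figure D3:**
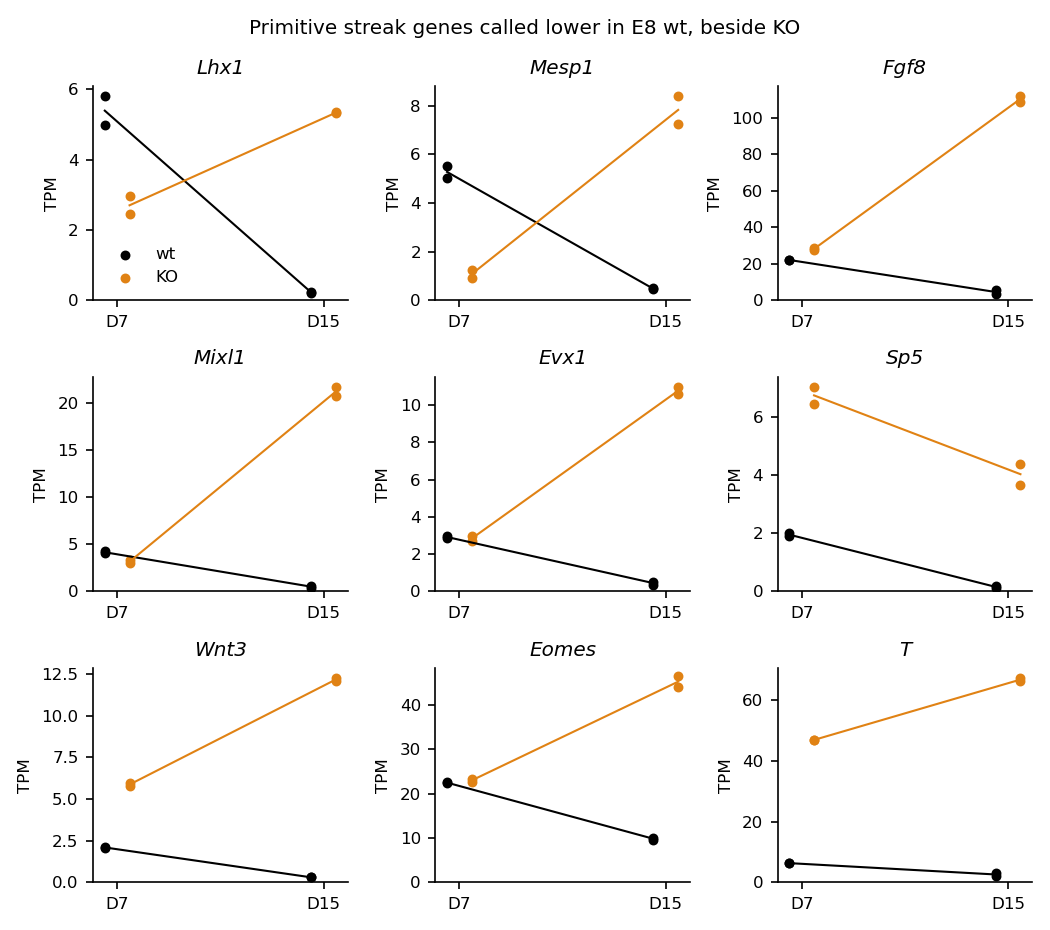
TPM in each library of the 9 primitive streak genes that fell in E8 wt cells, for wt (black) and KO (orange) at D7 and D15; points are libraries and lines join the means of 2. In wt all 9 are lower at D15, and in KO *Sp5* is lower too while the other 8 are higher.

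Some endoderm and endothelial markers fell as well, where 0.819% of all genes fell. *Cer1*, a secreted antagonist of Nodal, BMP and Wnt, went from 7.33 and 6.73 to 0.366 and 0.614 TPM (-2.43 ± 0.12, FDR = 1.4e-05), and *Foxa2*, the forkhead factor of endoderm, from 2.45 and 2.96 to 0.392 and 0.331. With *Trh*, the thyrotropin-releasing hormone precursor (223 and 219 to 79.9 and 85.4 TPM), they were the 3 members of the definitive endoderm and gut list that fell, of 14 tested and 17 listed, while *Gata6* (0.49) and *Hhex* (0.30) shifted upward by less than 2-fold. In the endothelium list (10 of 16 tested) *Kdr*, the VEGF receptor of mesodermal progenitors, *Flt1*, a second VEGF receptor, and *Etv2*, the ETS factor of hemangioblasts, fell. *Kdr* was at 3.42 and 2.88 TPM at D7 and at 0.246 and 0.180 at D15, while *Flt1* was at the limit (-1.004, and just short of it without replicate 1 of D15). *Pecam1*, which is also made by ES cells, was at 72.0 and 69.1 and then at 92.9 and 105 TPM. None of the members of the germ layer lists for endoderm, heart, muscle, vessels, blood, neural progenitors or neurons rose.

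Other lineage lists changed in at most 1 member, where 0.819% of all genes fell and 0.586% rose. *Spink1*, a trypsin inhibitor of visceral endoderm, fell from 11.7 and 8.996 to 1.31 and 1.02 TPM, the only 1 of 20 tested visceral endoderm genes. *Tnnc1*, cardiac troponin C, fell from 4.06 and 3.53 to 0.907 and 0.439 TPM, of 14 tested cardiac genes. *Msx1*, a BMP-induced homeobox gene, fell from 4.01 and 3.77 to 0.448 and 0.699 TPM, and, of 12 tested neuron genes, the neurofilament gene *Ina* from 39.6 and 36.7 to 17.3 and 19.3 TPM (-1.02, but -0.97 without replicate 1 of D7 and -0.94 without replicate 1 of D15). The neural genes *Sox1* (0.81) and *Stmn3* (0.99) shifted upward by less than 2-fold, and the neural progenitor list (5 of 18 tested) had a median of 0.08. Of 39 Hox genes only 4 passed the filter on low values, none of which rose or fell, and *Hoxc13*, with the largest shift of them, was at 1.09 and 0.983 TPM at D7 and 1.84 and 2.23 at D15. The parietal endoderm, cardiac transcription factor, skeletal muscle, smooth muscle, blood, neural crest, trophoblast and germline lists had no member that rose or fell. Among the 39 germ layer genes that the study itself chose, 32 were tested, 5 fell and none rose, where 0.819% of all genes fell. The choice was made on libraries of this series and is not independent evidence.

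**Figure D4:**
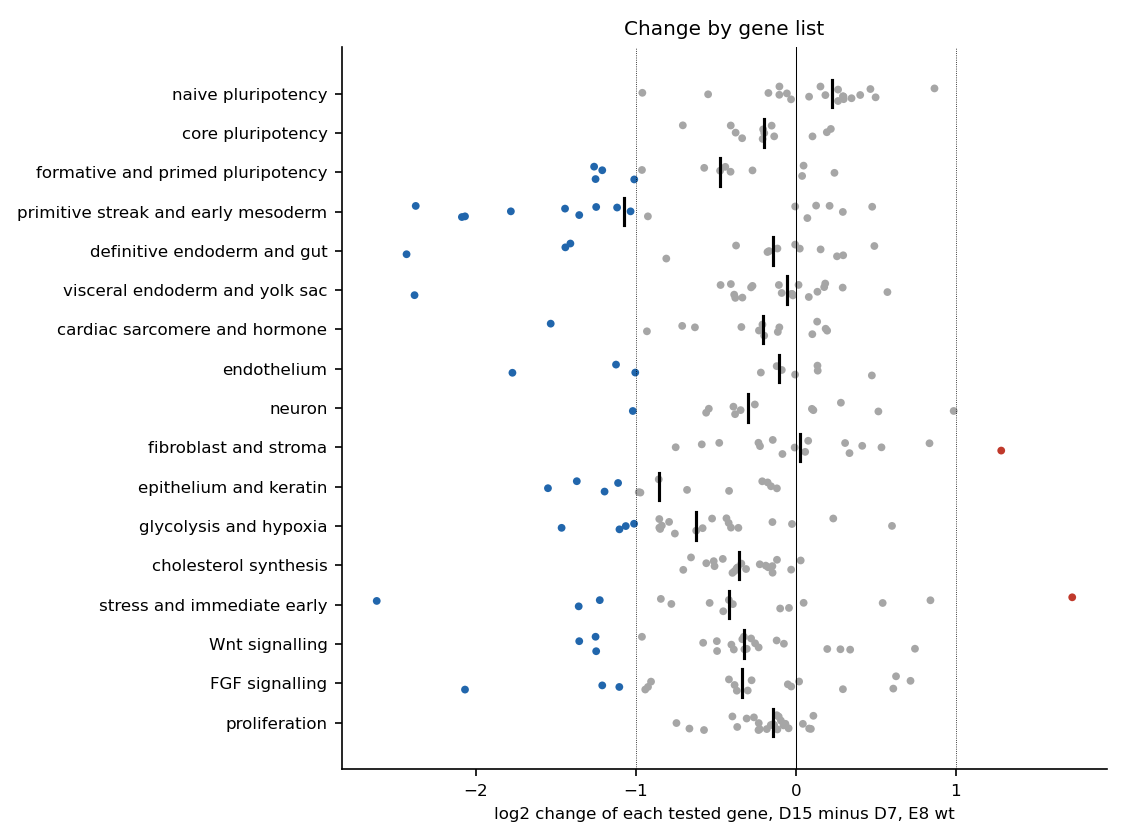
Log2 change between D7 and D15 in E8 wt cells of each tested member of 17 gene lists (points; blue fell, red rose, grey neither), with the list median as a black bar and a 2-fold change as dotted lines. The primitive streak list has its median at -1.07 and the naive pluripotency list at 0.23.

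Epithelial genes were lower at D15. All 13 tested genes of the epithelium and keratin list (18 listed) were lower at an FDR of at most 0.1, where 28.4% of all genes were, 4 of them fell by at least 2-fold, and the median change was -0.86. With a pseudocount of 5, 1 of the 13 fell. *Krt19*, a keratin of simple epithelia, fell from 12.3 and 10.1 to 3.27 and 3.02 TPM (-1.55 ± 0.08), and *Cldn6*, a tight junction claudin of embryonic epithelia, from 117 and 116 to 43.6 and 45.5 TPM (-1.37 ± 0.04). *Grhl2*, a transcription factor of epithelial identity, fell from 19.6 and 18.9 to 7.54 and 8.15 TPM, and *Esrp1*, an epithelial splicing regulator, from 33.9 and 33.8 to 14.6 and 15.7. *Krt8* (32.5 and 29.1 to 14.6 and 15.6 TPM) and *Krt18* (82.5 and 81.1 to 43.5 and 46.0) stayed just under 2-fold. The adhesion genes *Cdh1* (-0.18) and *Epcam* (-0.15), which ES cells also make, shifted least but for *Grhl3* (-0.12).

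Glycolysis and hypoxia genes were mostly lower at D15. Of 23 listed genes 21 were tested, 18 were lower at an FDR of at most 0.1, as were 28.4% of all genes, and 4 of these fell by at least 2-fold, as did 0.819% of all genes. None rose, and the median change was -0.62. With a pseudocount of 5, 2 of the 21 fell. *Ldha*, lactate dehydrogenase A, was at 1426 and 1370 TPM at D7 and at 673 and 713 at D15 (-1.01 ± 0.04, FDR = 1.0e-05). *Bnip3*, a mitophagy receptor induced by HIF-1, went from 52.8 and 54.5 to 20.3 and 17.4 TPM (-1.46 ± 0.07, FDR = 1.3e-05). *Ankrd37* (20.4 and 21.9 to 10.5 and 8.23 TPM) and *Ndrg1* (17.3 and 17.1 to 8.03 and 7.41 TPM), both known HIF targets, fell too, *Ankrd37* by 1.10 and, without replicate 2 of D15, by 0.95. *Ndufa4l2*, another gene induced in hypoxia and among the 15 largest falls, went from 25.1 and 23.0 to 4.67 and 4.89 TPM (-2.11 ± 0.08).

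Not all hypoxia genes were lower. *Slc2a3*, a neuronal-type glucose transporter, was at 752 and 739 TPM at D7 and 855 and 902 at D15 (0.24 ± 0.04). *Vegfa*, the endothelial growth factor, went from 33.6 in both libraries to 49.5 and 53.8 TPM (0.60 ± 0.04, FDR = 5.6e-05). The transporter *Slc2a1* shifted downward, from 316 and 304 to 164 and 179 TPM (-0.85 ± 0.05). *Gapdh* was listed at 1.66 to 2.31 TPM, far below its usual level, and has many near-identical pseudogene copies, so its value is uncertain. In KO cells *Bnip3* went from 25.9 and 24.5 to 44.0 and 43.8 TPM, 2.24 above the wt change (FDR = 3.4e-06).

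HIF binds a core motif, ACGTG, in its target genes. The 250 bases before the start site are shown, 5′ to 3′ on the strand of the gene, for the 3 called members of the list with a RefSeq promoter (GRCm38.p6), because these are the genes whose fall is largest or most abundant in the list. Capitals mark ACGTG or, on the other strand, CACGT; where both overlap they read CACGTG.
Ldha: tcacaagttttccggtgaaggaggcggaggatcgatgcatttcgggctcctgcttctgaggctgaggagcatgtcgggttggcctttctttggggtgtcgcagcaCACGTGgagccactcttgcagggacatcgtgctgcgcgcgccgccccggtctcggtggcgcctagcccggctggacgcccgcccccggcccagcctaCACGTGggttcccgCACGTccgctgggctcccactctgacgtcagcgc
Bnip3: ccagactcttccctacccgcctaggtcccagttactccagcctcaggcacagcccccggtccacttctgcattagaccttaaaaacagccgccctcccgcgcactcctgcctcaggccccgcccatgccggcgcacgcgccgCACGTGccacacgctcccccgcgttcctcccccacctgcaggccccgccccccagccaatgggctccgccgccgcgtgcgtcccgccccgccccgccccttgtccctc
Ankrd37: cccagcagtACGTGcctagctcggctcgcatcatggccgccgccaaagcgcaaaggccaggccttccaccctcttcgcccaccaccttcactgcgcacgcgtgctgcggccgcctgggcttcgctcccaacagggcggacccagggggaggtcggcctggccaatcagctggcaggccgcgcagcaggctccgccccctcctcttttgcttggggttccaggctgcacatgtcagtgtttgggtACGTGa
The windows lie at chr7:46845554-46845803 (*Ldha*, plus strand), chr7:138909507-138909756 (*Bnip3*, minus strand) and chr8:45999851-46000100 (*Ankrd37*, minus strand). Counting both strands, the motif starts at -145, -144, -48, -47 and -34 from the start site of *Ldha*, at -108 and -107 in *Bnip3* and at -241 and -6 in *Ankrd37*. Of 32851 promoter windows of this length 16.6% held the motif at least once, and of the 21 list members with a window 9 did (42.9%). The list includes known HIF targets by choice, so this share does not bear on the change between D7 and D15. For comparison, the motif TGATGNAA, which resembles the composite site of ATF4 and C/EBP factors, was in 3.45% of all windows, and of the promoters of *Ddit3*, *Gdf15* and *Nupr1* it was found in that of *Nupr1* alone, at -110. A match is a description of letters and not a binding site.

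Of the stress and immediate early genes, 3 fell and 1 rose, where 0.819% of all genes fell and 0.586% rose. *Egr1*, a zinc finger factor induced by growth factor signalling, fell from 21.1 and 20.5 to 2.29 and 2.82 TPM (-2.62 ± 0.07, FDR = 3.0e-06). This was the largest fall among called protein coding and lincRNA genes with a mean of at least 5 TPM on 1 of the days. *Fos* (11.3 and 12.8 to 3.78 and 4.42 TPM) and *Ier3* (10.9 and 10.5 to 3.43 and 4.64) fell, and *Jun* and *Junb* shifted by -0.54 and -0.84. Of 18 genes in this list 15 were tested, and the median change was -0.42. At an FDR of at most 0.1, 9 were lower and 3 higher, where 28.4% of all genes were lower and 30.2% higher. The gene that rose was *Ddit3* (CHOP), a transcription factor of the integrated stress response, from 18.2 and 14.9 to 57.3 and 56.5 TPM (1.73 ± 0.08, FDR = 1.3e-05). *Trib3*, a pseudokinase induced by CHOP, was at 16.04 and 15.7 and then at 28.8 and 29.7 TPM (0.84 ± 0.06), whereas the chaperone *Hspa5* was at 557 and 556 and then at 409 and 404 (-0.45 ± 0.03).

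**Figure D5:**
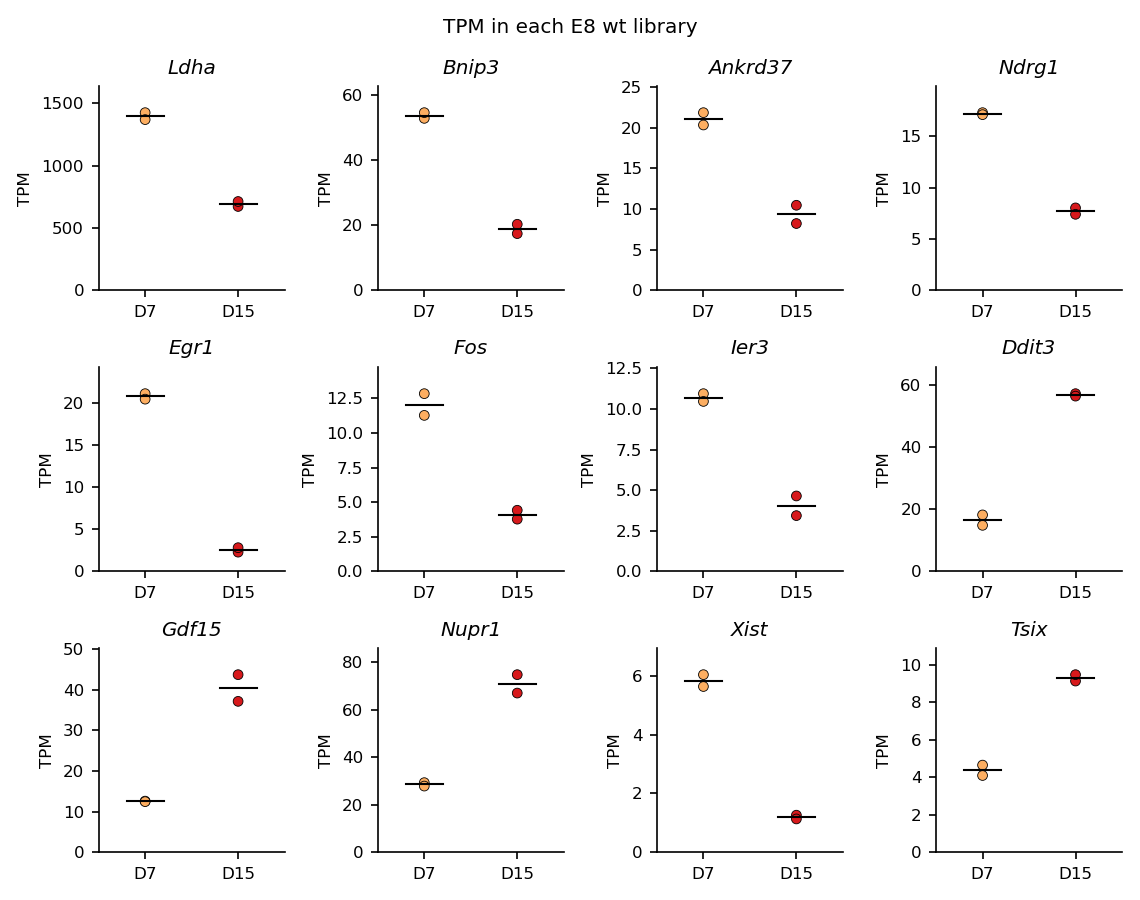
TPM in each E8 wt library at D7 (light) and D15 (red) of 4 hypoxia genes, 3 immediate early genes, 3 stress genes, *Xist* and *Tsix*; points are libraries and bars are means of 2. The libraries of the 2 days do not overlap in any panel, which adds no support, as all genes shown but *Tsix* were called. *Ldha* goes from 1426 and 1370 to 673 and 713 TPM.

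The 15 largest rises included *Ddit3* and genes of varied known roles. The ranking covers called protein coding and lincRNA genes with a mean of at least 5 TPM on 1 of the days. *Neat1*, the long non-coding RNA that builds paraspeckles, rose most of the 15, from 38.4 and 39.2 to 142 and 143 TPM (1.85 ± 0.03, FDR = 6.7e-07). *Gdf15*, a secreted TGF-β family factor induced by stress, rose from 12.6 and 12.5 to 37.1 and 43.7 TPM, and *Nupr1*, a small stress-induced nuclear protein, from 29.4 and 27.9 to 67.1 and 74.8. Homeobox genes were *Vax2*, known from the ventral eye (17.3 and 15.6 to 49.7 and 51.7 TPM), and *Gsx2*, known from the ventral forebrain (1.75 and 1.38 to 5.08 and 5.62 TPM). *Tgm2*, a protein crosslinking enzyme (7.31 and 6.71 to 22.7 and 24.5 TPM), and *Tgfbi*, a matrix protein (8.53 and 8.96 to 22.5 and 23.0), rose as well, *Tgfbi* as the only member of the fibroblast and stroma list. The others were *Tspo2*, *Ripply3*, *Mir124a-1hg*, *Cdo1*, *Itpkb*, *Camk2n1* and *Gm867*, with changes between 1.26 and 1.65.

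The KO cells did not share all of these rises. *Neat1* was at 82.5 and 78.6 TPM in KO at D7 and 93.1 and 91.1 at D15, a change 1.66 below that of wt (FDR = 1.2e-06). *Ddit3* went from 25.7 and 26.9 to 37.4 and 36.4 TPM in KO (difference from wt -1.26, FDR = 9.8e-05). *Cdo1*, cysteine dioxygenase, went from 8.35 and 9.36 to 25.8 and 27.2 TPM in wt and from 9.97 and 9.23 to 26.7 and 28.7 TPM in KO, and the changes differed by -0.04 (FDR = 0.713).

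Among the 15 largest falls, *Cyp26a1*, the enzyme that breaks down retinoic acid, went from 15.9 and 15.8 to 2.17 and 1.98 TPM (-2.45 ± 0.04, FDR = 6.7e-07). It was the only one of 10 tested retinoic acid genes to fall, where 0.819% of all genes fell. *Anxa2*, a calcium-dependent membrane protein, fell from 30.9 and 32.0 to 9.28 and 10.5 TPM, and *Vrtn*, a gene of vertebral number, from 13.7 and 12.6 to 2.46 and 3.12. *Gm20594* and *Vstm2b* fell by 1.92 and 1.64, and *Amot*, *Usp26* and *Xist*, which are X-linked, were also among them.

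Signalling genes fell in several lists, where 0.819% of all genes fell, and the ligands among them were *Wnt3*, *Fgf8*, *Fgf5*, *Fgf15* and *Bmp4*. In the Wnt list (22 of 26 tested) *Sp5*, *Lef1* and *Wnt3* fell, none rose, and the median change was -0.32; *Axin2*, a common feedback target, was at 5.34 and 4.82 and then at 3.77 and 3.94 TPM (-0.32 ± 0.06). In the FGF list (18 of 20 tested) the ligands *Fgf8*, *Fgf5* and *Fgf15* fell, *Fgf15* from 26.03 and 25.6 to 11.6 and 11.4 TPM. *Fgf4*, the ligand that ES cells make, was at 147 and 144 and then at 175 and 181 TPM (0.30 ± 0.03). *Bmp4*, the ligand that induces mesoderm, was the only one of 17 tested Nodal and BMP genes to fall, from 41.0 and 39.3 to 16.3 and 21.3 TPM (-1.07 ± 0.10, FDR = 0.00021; -0.88 without replicate 1 of D15), and the BMP target *Id3* shifted from 36.9 and 34.9 to 18.6 and 17.6 TPM (-0.95 ± 0.04).

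Several broader gene lists had no member that rose or fell. Of 25 proliferation genes, all tested, none rose or fell, with a median of -0.14, and *Mycn* had the lowest value at -0.75. Cholesterol synthesis genes were lower at an FDR of at most 0.1 in 18 of 20, where 28.4% of all genes were, none by 2-fold, with a median of -0.35. *Hmgcs1*, which makes HMG-CoA, was the lowest, from 164 and 175 to 103 and 104 TPM (-0.70 ± 0.04), and in KO went from 128 and 121 to 201 and 207. Imprinted genes (21 of 24 tested) had a median of -0.16, PRC2 and PRC1 genes (19 of 20) of 0.07, cell cycle inhibitors (11 of 12) of 0.11, basement membrane genes (16 of 21) of 0.12 and interferon genes (10 of 14) of -0.02, and no member of these rose or fell. The epithelial to mesenchymal transition list (16 of 19 tested) differed from these in that *Cdh2* and *Esrp1* fell, where 0.819% of all genes did.

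*Xist* went down and did not reach the level of cells with X inactivation. *Xist*, the long non-coding RNA that coats the Xi (mm10, chrX:103460366-103483254), was at 5.63 and 6.03 TPM at D7 and at 1.26 and 1.14 at D15 (-1.63 ± 0.08, FDR = 1.4e-05). Without small RNA symbols it was at 7.92 and 8.61 and then at 1.77 and 1.55 TPM, beside 2.60 and 1.67 in *Tsix*-stop wt ES cells and 169 and 84.3 in *Tsix*-stop wt cells at D15. *Tsix*, its antisense partner, was at 4.65 and 4.10 TPM at D7 and at 9.13 and 9.47 at D15 (0.94 ± 0.06, FDR = 5.0e-05), just under 2-fold. The genes overlap, and without strand in the counting their reads cannot be told apart. In KO *Xist* was at 0.268 and 0.257 TPM at D7 and 0.401 and 0.523 at D15.

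Of the 453 X-linked genes tested 10 fell and 1 rose, and 2.21% of X-linked against 0.768% of 11973 autosomal genes fell. The median change was -0.04 for X-linked and 0.01 for autosomal genes, a difference of -0.05 that was not tested. The X-linked genes that fell were *Xist*, *Amot*, *Usp26*, *1700013H16Rik*, *Pim2*, *Rhox1*, *Rab33a*, *1700019B21Rik*, *Dgkk* and *Capn6*, and the riser was a microRNA listed at 0 at D7, so it is a small RNA symbol with no fold given; those beyond *Xist*, *Amot* and *Usp26* were named after their values were seen. *Amot*, a scaffold of the Hippo pathway, was at 22.8 and 23.9 TPM at D7 and at 6.17 and 5.94 at D15 (-1.79 ± 0.04, FDR = 9.9e-07). *Usp26*, a deubiquitinase gene, went from 12.2 and 12.5 to 3.44 and 3.25 TPM, and *Pim2*, a kinase that promotes survival, from 45.8 and 46.3 to 15.1 and 17.1. Of the 11 genes known to escape X inactivation 9 were tested and none rose or fell, and *Ddx3x*, an RNA helicase gene, was at 425 and 443 TPM and then at 371 and 366.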

How the data were processed

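The E8 files hold TPM, which the authors deposited per gene symbol. Per the labels the molecule was polyA RNA, and according to the methods it was made into TruSeq V2 libraries and sequenced as 75 bp single-end reads; the submitters' processing notes name mm10, TopHat2 2.1.1 and Bowtie2 2.4.5. Strand use and annotation are not given in the sources used here. TPM keeps no depth, so no counting interval is given. For *Tsix*-stop wt the authors deposited expected counts, which were rounded and turned into TPM with GENCODE vM21 exon lengths (53026175 to 68796172 counts per library).

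Of 24883 E8 rows 537 repeated a symbol and were summed, leaving 24346 symbols. Symbols with at least 2.5 TPM in at least 2 of the 8 E8 libraries were fitted as log2(TPM + 1) with limma 3.58.1 (trend), 1 mean per genotype and day, without a replicate block. P-values were adjusted by Benjamini-Hochberg over all 12452 genes. An exact permutation test of 2 against 2 cannot go below p = 0.333. The fit was checked on simulated data.

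The genes named are the 15 largest rises and falls among called protein coding and lincRNA genes whose D7 and D15 libraries did not overlap and whose mean reached 5 TPM on one of the days, all naive and core pluripotency genes, *Xist*, *Tsix* and *Kdm6a*, and up to 3 called members of each other list, or its highest member where none was called; other list members are given for contrast. The members and lists were chosen with earlier results of these data known. Alternatives were another pseudocount, filter, scaling, set of libraries or threshold, and small RNA symbols removed, chosen after seeing the data.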

Additional observations from a re-analysis of the deposited data

Results flagged for a closer look

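For 37 of the 104 named genes the change between D7 and D15 differed between KO and wt cells by at least 2-fold, by limma's interaction term at an FDR of at most 0.1 (7.25% of all genes tested did). Many of the 104 genes were named for a large wt change (54 rose or fell), so the 2 shares are not comparable. Values are the KO change minus the wt change in log2(TPM + 1), with 2 libraries per genotype and day; the KO libraries come from 1 clone according to the methods, so genotype and clone cannot be told apart. The KO change was above the wt change for 31 genes. Lineage and signalling genes among them were *Mesp1* (4.17), *Fgf8* (3.9998), *Lhx1* (3.16), *Wnt3* (2.19), *Kdr* (3.78), *Etv2* (3.72), *Cer1* (2.87), *Msx1* (3.30), *Trh* (1.3501), *Tnnc1* (1.83), *Bmp4* (1.62), *Lef1* (1.93), *Cdh2* (1.06), *Fgf15* (1.44), *Cyp26a1* (1.84). Epithelial, hypoxia, immediate early, sterol and pluripotency genes were *Krt19* (1.55), *Esrp1* (1.43), *Grhl2* (1.27), *Ndufa4l2* (4.49), *Bnip3* (2.24), *Ankrd37* (1.13), *Ndrg1* (1.05), *Egr1* (1.39), *Hmgcs1* (1.41), *Dppa3* (1.30). The others were *Amot* (1.502), *Gm20594* (1.52), *Xist* (1.85), *Usp26* (1.91), *Vrtn* (3.32), *Vstm2b* (3.62). The KO change was below the wt change for *Sparc* (-1.96), *Neat1* (-1.66), *Gata4* (-1.57), *Tgfbi* (-1.41), *Ddit3* (-1.26), *Nupr1* (-1.24).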

How the results depend on the processing

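The counts of genes depended on the minimum fold and on how low levels were weighed. The number of genes higher at D15 than D7 was 135 with a pseudocount of 0.1 and 26 with 5, and that of genes lower at D15 than D7 was 197 and 32. With a filter of 10 TPM 48 genes were higher, and without a minimum fold 3760 were higher and 3541 lower. The number of genes whose time change differs between KO and wt, 903, became 430 with a pseudocount of 5, 595 with the filter of 10 TPM and 8369 without a minimum fold. Leaving out 1 wt library gave 72 to 100 genes higher and 99 to 120 lower, and a naive pluripotency median between 0.16 and 0.26. Without a filter on low values the X-linked minus autosomal median was -0.018 in place of -0.046. *Sparc*, at -0.03, was at 0.0011 with quantile normalization, and between -0.11 and 0.047 when 1 wt library was left out (highest without replicate 1 of D15), and *Kdm6a* was at -0.015 with small RNA symbols removed, and none of these passed the test. Of 54 named genes that rose or fell, 25 kept their call under every alternative run and 29 lost it with a pseudocount of 5. Same-numbered libraries did not deviate together (correlation -0.04 in wt), so they share only a number, and with the replicate as a block 78 genes were higher and 108 lower, with no named call lost. The wt libraries alone cannot give the KO comparison, and thresholds do not enter the medians. Sequencing depth is unknown, so counting error at low TPM could not be given.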
